A study of Rattus norvegicus with 6 samples.

Results

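Keratins are the intermediate filament proteins of epithelial cells, and their messenger RNAs were followed here array by array through rat Achilles tendon that had been harvested without its skin. The members are the 46 keratin genes among 22093 genes with a named row on the array, namely every row whose single platform symbol is Krt followed by a number and, in some, a lower-case letter. Where a keratin had more than 1 row, which applied to 2 of them, the brighter row, by its mean signal on the 6 arrays, stood for the gene. The family was chosen by its signals on these same arrays, because the P 1d arrays were already known to differ in them, so the levels below are a description, and a p-value of a member from the fit over all genes is given as a value only. The profiling compared Achilles tendons of male Sprague Dawley rats at postnatal day 1 (P 1d, 3 rats) and at 6 to 8 weeks (P 6-8w, 3 rats), with the left hindlimb tendon of each rat on an array of its own. No treatment is named for either group. The tendon was ground whole and no cells were sorted, so each array reads a mixture of cells in which fewer cells of a type and less RNA per cell cannot be told apart. Values are log2 signals from robust multi-array average (RMA), so a step of 1 is a doubling, and the ceiling of the arrays lay between 19.56 and 19.79. No detection calls were used, and a level is set against the same row on another array. The exceptions are the tendon markers, the list means and the rows classed as dim by a mean signal below 5. Levels of different rows give no order of abundance.

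Keratins form filaments as pairs, 1 acidic type I chain with 1 basic type II chain, and each layer of an epithelium makes its own pair. In the epidermis the dividing basal layer makes Krt5 with Krt14, and the cells above it switch to Krt1 with Krt10 as they move toward the cornified surface. Hair follicles add a set of their own for the inner root sheath, which hardens ahead of the hair shaft it surrounds, and another for the shaft itself. Single-layered epithelia use Krt8 with Krt18, and tendon fibroblasts, which are mesenchymal, fill their cytoskeleton with vimentin instead. The 46 measured keratins included Krt14 and Krt15 but not Krt5, whose row also names Krt77 and was not read. In all, 3 rows that name several genes were left aside for this reason. Krt6a, Krt6c, Krt31, Krt33a, Krt33b, Krt34 and Krt77 had no row of a single symbol and were not read either.

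The tendon arrays showed the signals of tendon on all 6 arrays, and those of muscle too. Tnmd, which encodes tenomodulin, had 14.91, 14.38 and 13.44 on P 1d arrays 1, 2 and 3 and 13.47, 9.36 and 12.37 on P 6-8w arrays 1, 2 and 3. Col1a1 and Col1a2 stood at the ceiling throughout, whereas the tendon transcription factor genes Scx and Mkx had signals from 4.44 to 4.55 and from 4.72 to 5.08 over the 6 arrays. The skeletal muscle list, 12 genes, averaged between 13.30 and 13.59 at P 1d and between 11.25 and 13.29 at P 6-8w. Dim rows stood higher at P 6-8w as a body: the median of all rows lay between 3.93 and 3.98 at P 1d and between 4.43 and 4.54 at P 6-8w, and over genes whose mean signal was below 5 the difference, P 6-8w minus P 1d, had a median of 0.30.

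Among the 46 keratins, 7 had a range over the 3 P 1d arrays, highest minus lowest, of more than 2 on the log2 scale, a fold of 4. This is 15.2% of the keratins, beside 0.462% of all genes (102 of 22093). The count rested on arrays 2 and 3: it was 3 without array 2 (Krt14, Krt16 and Krt25), 3 without array 3 (Krt1, Krt10 and Krt14) and 7 without array 1. The members past the limit of 2, in order of their range, were Krt1, Krt10, Krt14, Krt16, Krt17, Krt25 and Krt78, and each of them was highest on array 3, intermediate on array 1 and lowest on array 2. In 7 of these 7, arrays 1 and 3 lay above all 3 P 6-8w arrays and array 2 lay below all 3. Krt78, at 2.89, was the member just inside the limit, and Krt73 and Krt71, at 1.95 and 1.92, were just outside. A range of more than 1 was reached by 12 keratins, and the order 3, 1, 2 held in 12 of those 12. Over all 46 members, array 2 was the lowest in 37 (80.4%), shared the lowest value with another array in 8, and was above the lowest in Krt20, whose range was 0.03. Array 2 was the sole lowest in 25.9% of all genes, and of the 102 genes past the limit it was lowest in 67, which is 0.303% of all genes.

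**Figure D1:**
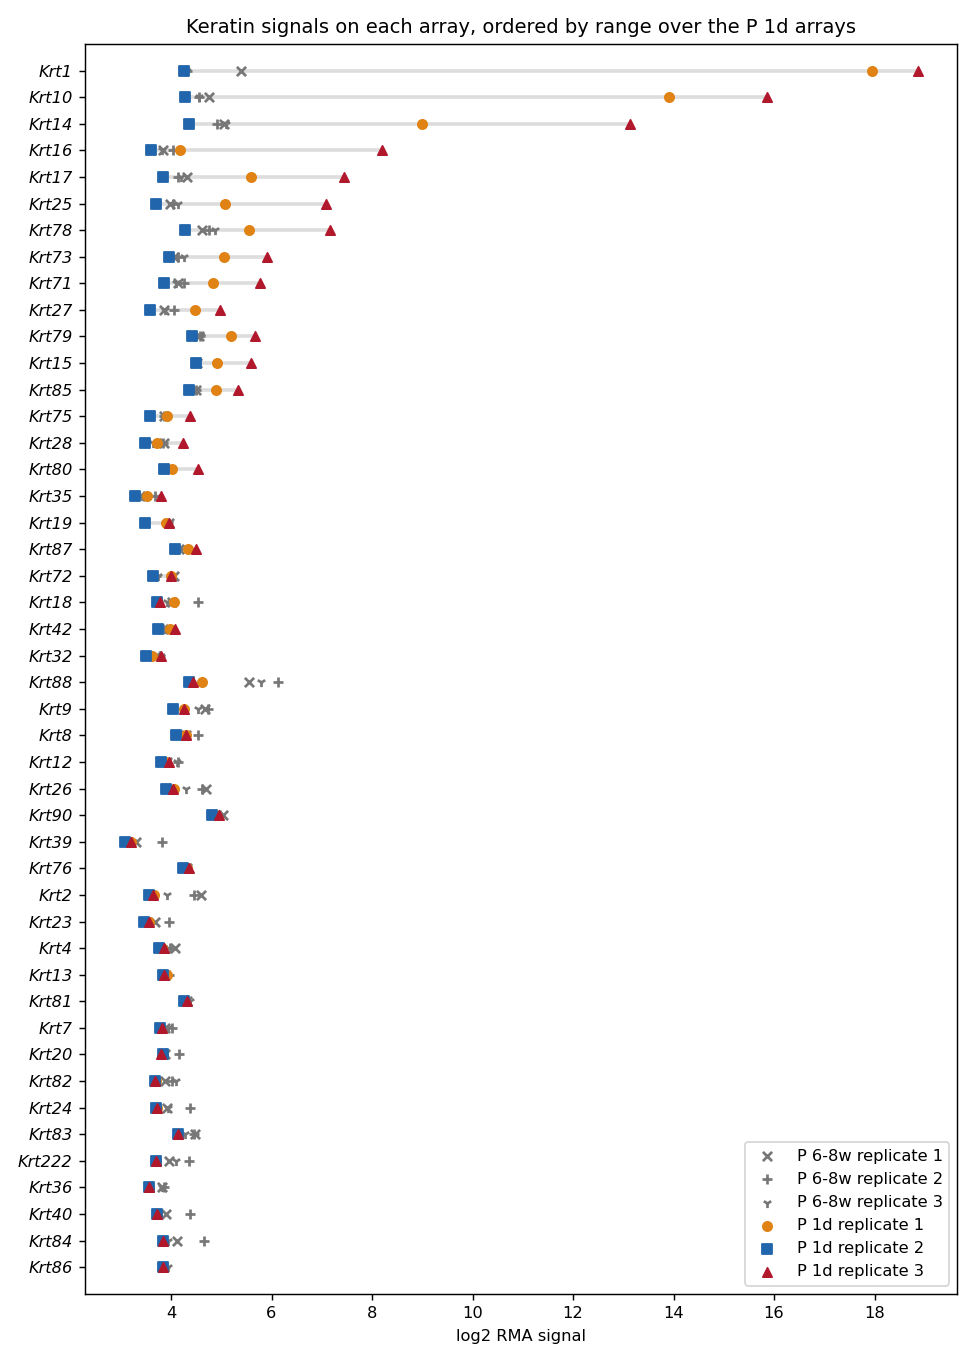
Log2 RMA signal (horizontal axis) of the 46 keratin genes (rows, ordered by their range over the P 1d arrays), with a coloured symbol for each P 1d array, a grey symbol for each P 6-8w array and a bar spanning the P 1d arrays. The upper 7 genes, from Krt1 to Krt78, spread over more than 2 units with replicate 3 highest and replicate 2 lowest, while all P 6-8w symbols lie between 3.25 and 6.13.

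The suprabasal pair gave the widest spread. Krt1, the type II chain of the cells above the basal layer, had 17.94, 4.25 and 18.86 on P 1d arrays 1, 2 and 3, and 5.40, 4.32 and 4.32 on the corresponding P 6-8w arrays. Arrays 1 and 3 were thus within 0.92 of each other, and array 2 lay below the lowest P 6-8w value. Krt10, its type I partner, had 13.91, 4.27 and 15.85 on the P 1d arrays, with 4.75, 4.56 and 4.56 at P 6-8w, so its range was 11.58 at P 1d against 0.19 at P 6-8w. By range over the P 1d arrays Krt1 ranked 2 and Krt10 ranked 4 among the 22093 genes. Krt78, a type II keratin, followed at some distance with 5.55, 4.27 and 7.16 on the P 1d arrays, with 4.62 to 4.87 at P 6-8w. The other suprabasal members stayed flat at P 1d. Krt2, the chain of the uppermost living layers, had 3.67, 3.56 and 3.64, and Krt9, the keratin of palm and sole skin, had 4.25, 4.04 and 4.25. The 5 measured suprabasal keratins thus comprised 3 past the limit and 2 that moved by 0.11 and 0.21.

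The basal keratins were split in the same way. Krt14, the type I chain of dividing basal cells, had 9.0, 4.35 and 13.13 on the P 1d arrays, against 5.06, 4.91 and 5.10 on the P 6-8w arrays. Here arrays 1 and 3 differed by 4.13, where Krt1 differed by 0.92 and Krt10 by 1.94. The step in signal from array 1 to array 3 was thus not the same from keratin to keratin. Krt1, at 17.94 and 18.86, lay near the ceiling of these arrays, 19.75 and 19.74. Whether this narrowed its step was not tested. Krt15, a basal chain that also marks the follicle bulge, had 4.91, 4.49 and 5.60 on the P 1d arrays, with 4.52, 4.91 and 4.91 at P 6-8w, a range of 1.11 in the same order. Krt14, Krt16 and Krt17 are neighbours in the type I cluster and close relatives in sequence, and cross-hybridisation between their probes was not tested.

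Keratins of the follicle's outer layers and of activated epidermis came next. Krt16, a type I chain of thickened and wound-edge epidermis, had 4.18, 3.60 and 8.19 on the P 1d arrays and 3.83 to 4.03 at P 6-8w, so that it stood out on array 3 while array 1 was 0.58 above array 2. Krt17, found in the outer root sheath, had 5.60, 3.85 and 7.44 on the P 1d arrays, with 4.14 to 4.32 at P 6-8w. Krt79 and Krt75, the latter of the companion layer, had ranges of 1.26 and 0.79, both with array 3 highest. Of the 4 measured members of this list, 2 were past the limit and array 2 was the lowest in 4 of 4.

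The inner root sheath keratins had a higher median range, 1.39, than those of the hair shaft, although the ranges of the lists overlapped. Krt25, a type I chain of the sheath, had 5.07, 3.71 and 7.09 on the P 1d arrays, with 3.99, 4.03 and 4.13 at P 6-8w. Krt73 and Krt71, type II chains of the sheath, had 5.05, 3.96 and 5.91, and 4.84, 3.86 and 5.78, respectively, at P 1d, and signals of 4.06 to 4.26 and 4.10 to 4.25 at P 6-8w. Krt27, a type I sheath chain, had 4.48, 3.58 and 4.97 at P 1d and 3.87 to 4.05 at P 6-8w, again with array 2 below and the other P 1d arrays above all P 6-8w arrays. Krt28, Krt72 and Krt26 had ranges of 0.76, 0.35 and 0.16, so 4 of the 7 measured sheath keratins had a range over 1. Of the 12 measured hair shaft keratins none did: Krt85 had the largest range, 0.98 (4.90, 4.36 and 5.34), and their median range was 0.035. Tchh, which encodes trichohyalin, the matrix protein that hardens the inner root sheath, had 5.39, 3.15 and 7.29 at P 1d. Hoxc13 and Foxn1, transcription factor genes of the growing hair shaft, had ranges of 0.36 and 0.22. Tchh was the 1 of 10 measured hair follicle genes outside the keratins with a range over 2, beside 0.462% of all genes. The median range of that list was 0.17. Array 2 was the lowest in 8 of the 10, beside 25.9% of all genes, and the order 3, 1, 2 held in 2, beside 9.35%.

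Keratins of other epithelia did not share the spread. Krt8 and Krt18, the pair of single-layered epithelia, had 4.30, 4.10 and 4.30, and 4.05, 3.72 and 3.79 at P 1d, with 4.13 to 4.53 and 3.93 to 4.53 at P 6-8w. Krt7, Krt19, Krt20 and Krt23, also of simple epithelia, had ranges from 0.03 to 0.47 at P 1d. Krt4 and Krt13, the suprabasal pair of the oesophagus and oral lining, had ranges of 0.09 and 0.08, and Krt12, the corneal chain, had 0.16. Of the keratins outside these groups, Krt80 had a range of 0.68, Krt42 of 0.33 and Krt90, Krt24 and Krt222 of 0.14 or less. Small as these ranges were, array 2 was the sole lowest P 1d array in 5 of the 6 simple epithelial keratins. The same held in 4 of the 4 internal stratified and corneal keratins and in 4 of these last 5, beside 25.9% of all genes. In all, 39 of the 46 members stayed within the limit, with P 1d signals from 3.08 to 5.91. Of the 12 members with a range over 1, 2 were on the basal list, 3 on the suprabasal list, 3 on the list of outer sheath, companion layer and activated epidermis and 4 on the inner root sheath list. The other 34 had ranges below 1, the suprabasal chains Krt2 and Krt9 among them, so the label of an epidermal tracer does not describe the family as a whole. By their lists, 4 of the 12 leading members are inner root sheath chains, and 3 more are on the list that includes the outer sheath.

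**Figure D2:**
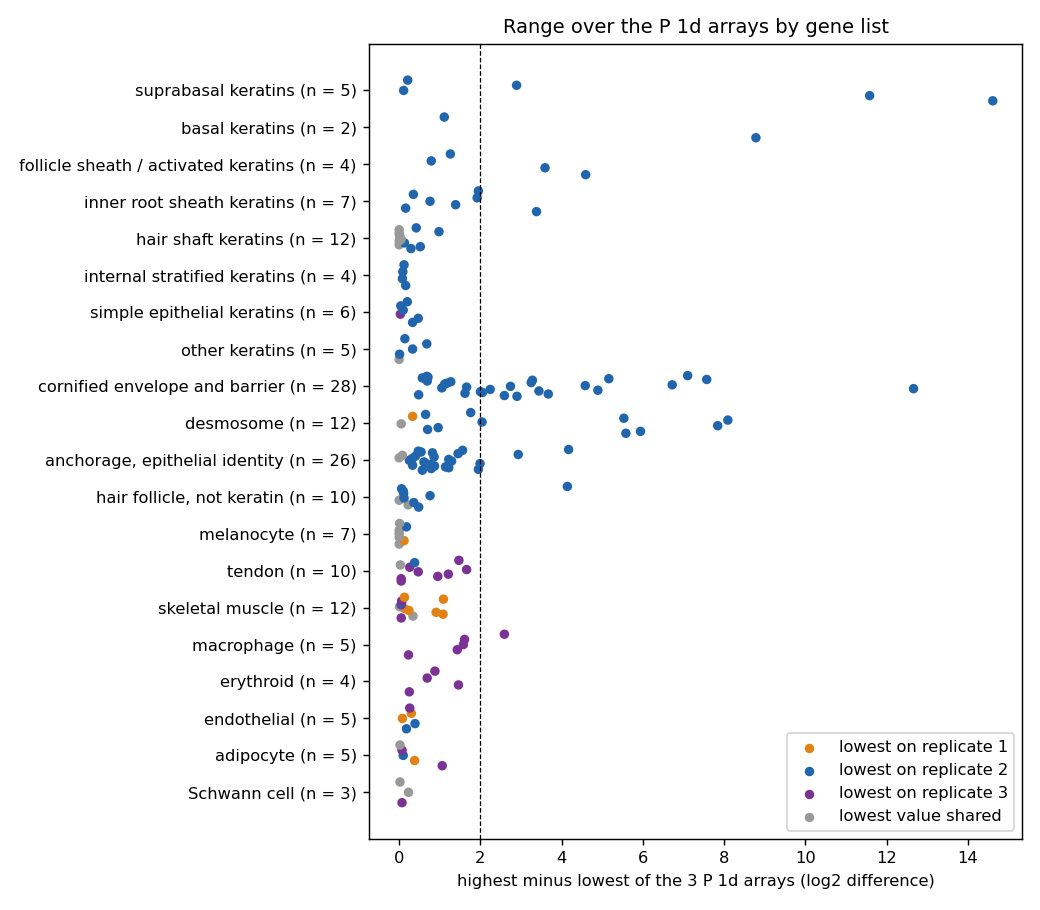
Highest minus lowest of the 3 P 1d arrays (horizontal axis, log2 difference) for each gene of 8 keratin lists and 12 lists of other markers, coloured by the P 1d replicate on which the gene was lowest, with a dashed line at 2. Points past the line are blue, lowest on replicate 2, in the keratin and epidermal lists, and the macrophage list holds the 1 point past it, Mrc1, that was lowest on replicate 3.

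The places of these genes in the rat genome follow their type. In the RefSeq annotation of the GRCr8 assembly, which served for names and neighbours only since the build of the array's own annotation was not given, 23 members lie on chromosome 10 and 23 on chromosome 7. The chromosome 10 cluster holds the type I chains and 5 of the 7 members past the limit, and the chromosome 7 cluster holds the type II chains and Krt18. Neighbours did not always share the spread: Krt2 and Krt1 are next to each other in the order of keratin genes with ranges of 0.11 and 14.61, as are Krt9 and Krt14 with 0.21 and 8.78. The windows around the starts of 4 members are shown because they come from both clusters and from both the epidermal and the follicle sets that varied together at P 1d. Each runs 5′ to 3′ on the gene's strand, from 250 bases before to 50 bases after the RefSeq start, at chr10:84839111-84839410, chr10:84771148-84771447, chr7:134760984-134761283 and chr7:134960678-134960977, all on the minus strand of GRCr8. Capitals mark TATAAA, the core of the TATA box.
Krt10: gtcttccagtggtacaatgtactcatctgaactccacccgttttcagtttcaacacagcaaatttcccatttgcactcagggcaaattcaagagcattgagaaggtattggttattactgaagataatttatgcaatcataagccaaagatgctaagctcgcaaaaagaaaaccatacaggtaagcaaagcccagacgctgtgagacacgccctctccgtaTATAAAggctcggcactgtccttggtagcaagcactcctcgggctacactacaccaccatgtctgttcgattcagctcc
Krt25: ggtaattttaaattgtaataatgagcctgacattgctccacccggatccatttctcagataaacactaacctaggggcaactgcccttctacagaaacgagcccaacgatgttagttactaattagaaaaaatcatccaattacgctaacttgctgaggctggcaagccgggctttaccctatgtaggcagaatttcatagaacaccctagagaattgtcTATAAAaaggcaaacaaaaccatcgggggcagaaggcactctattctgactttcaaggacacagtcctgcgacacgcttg
Krt71: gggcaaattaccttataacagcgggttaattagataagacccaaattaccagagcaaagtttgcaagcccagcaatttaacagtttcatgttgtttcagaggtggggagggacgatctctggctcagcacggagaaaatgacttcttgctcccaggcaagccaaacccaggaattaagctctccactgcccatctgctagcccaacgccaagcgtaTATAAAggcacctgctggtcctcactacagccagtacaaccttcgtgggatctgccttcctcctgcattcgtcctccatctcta
Krt78: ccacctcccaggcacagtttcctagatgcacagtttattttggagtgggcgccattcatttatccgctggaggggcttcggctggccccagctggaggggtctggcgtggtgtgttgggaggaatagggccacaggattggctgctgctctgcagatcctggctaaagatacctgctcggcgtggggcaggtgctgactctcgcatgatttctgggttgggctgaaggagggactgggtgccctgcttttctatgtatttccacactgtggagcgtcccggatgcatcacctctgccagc
The TATAAA began 29, 30 and 34 bases before the start in Krt10, Krt25 and Krt71 and was not found in the Krt78 window. Windows were at hand for 33 of the 46 members, and of these 18 (54.5%) held TATAAA on either strand, compared with 14.3% of all 27457 genes with such a window. It was present in 5 of the 7 members with a range over 1 and in 13 of the 26 with a smaller range. CCAAT, searched on both strands, was present in 57.6% of keratin windows and 37.7% of all windows, and TGANTCA, the AP-1 core, in 6.06% and 7.33%. These matches describe the letters of the windows and name no factor at work.

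Other genes of the epidermis, from lists that hold no keratin, followed the same arrays to an extent that differed by list. These lists were written with earlier results of these data known, so their counts are a description. Of 28 measured genes of the cornified envelope and skin barrier, 16 had a P 1d range over 2, beside 0.462% of all genes. Array 2 was the lowest in 28 of 28, beside 25.9% of all genes. Flg, which encodes filaggrin, the protein that bundles keratin filaments, had 13.77, 4.05 and 16.71 on the P 1d arrays, with 5.11, 4.35 and 4.30 at P 6-8w. Sprr1a, a cornified envelope precursor, and Tgm3, a transglutaminase that cross-links the envelope, had 5.80, 3.45 and 11.02, and 6.53, 3.69 and 10.79. Loricrin and Ivl, the gene of involucrin, are envelope genes with smaller ranges, 1.12 and 1.05. Loricrin had 5.12, 4.0 and 4.70 at P 1d and was higher on array 1 than on array 3, 1 of 8 such genes among the 76 measured on the 4 epidermal lists (envelope, desmosome, anchorage and identity, hair follicle).

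Desmosomes, the junctions to which keratin filaments attach, were followed through 12 genes. Of these, 6 had a P 1d range over 2, beside 0.462% of all genes. Perp, a desmosomal membrane protein gene, had 9.66, 5.06 and 13.15, and Dsp, which encodes the keratin-binding desmoplakin, had 8.38, 4.13 and 11.97 at P 1d. Dsc3 and Dsg1, the genes of desmosomal cadherins, had ranges of 5.58 and 5.94. Of 26 genes of basal anchorage and epithelial identity, 2 were past the limit, Trim29 with 5.73, 4.14 and 8.31, and Ly6d with 4.36, 3.44 and 6.37. Tp63, the transcription factor gene of basal keratinocytes, had 5.47, 4.82 and 6.38, and Cdh1, the gene of E-cadherin, had 5.67, 4.41 and 6.36. The order 3, 1, 2 held in 20 of these 26 genes and in 10 of the 12 desmosome genes. Among the rest, Itgb4 had 4.69 on each P 1d array and 5.37 to 5.88 at P 6-8w. Itga6 and Dst were highest on P 1d array 1, and the desmosome gene Pkp2 was lowest there (3.85, 4.18 and 4.18). By the comparison of the ages, 3 of the 76 genes on these lists were called, each lower at P 6-8w, against 16.8% lower over all genes. They were Jup, the gene of plakoglobin, Klf5, a transcription factor gene, and Cldn1, a tight junction gene, which were lower with log2 values of -2.48, -1.55 and -2.32 for the difference between the ages (limma, adjusted p = 0.0162, 0.00659 and 0.00378). Unlike the keratins, these genes stayed above all P 6-8w arrays on P 1d array 2, at 7.53, 6.59 and 7.42. The mean signal over the 76 measured genes of the 4 epidermal lists was 5.07, 4.18 and 6.28 on P 1d arrays 1, 2 and 3 and 4.44 to 4.49 at P 6-8w. The keratins had mean signals of 4.79, 3.88 and 5.28 at P 1d and 4.14 to 4.27 at P 6-8w, whereas the mean over all genes was 5.45, 5.45 and 5.47 at P 1d.

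**Figure D3:**
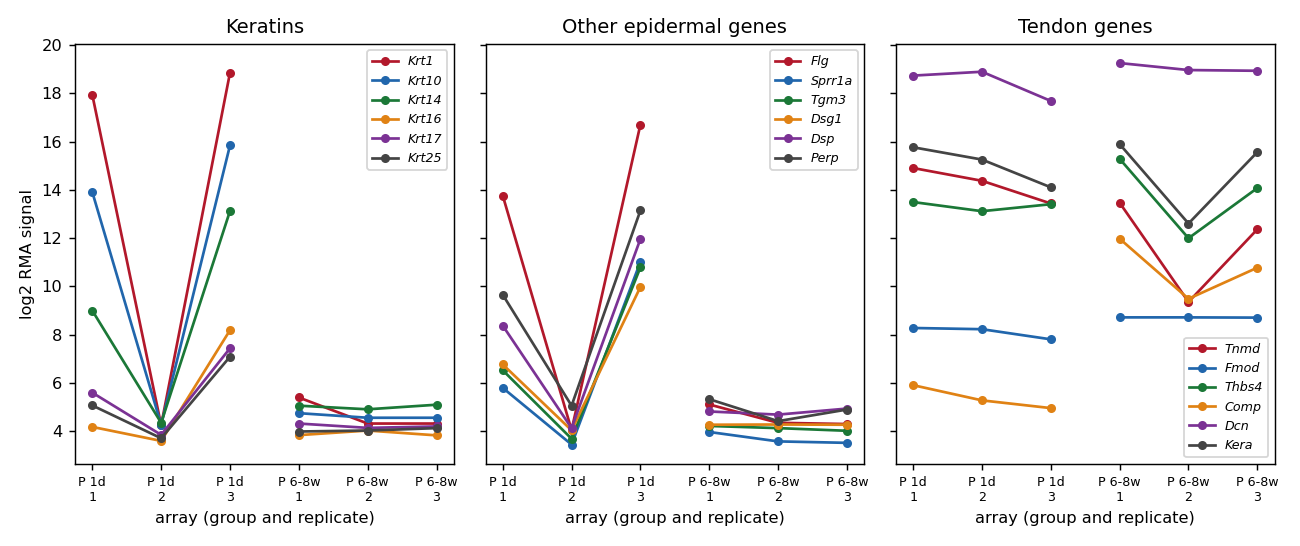
Log2 RMA signal (vertical axis) on each of the 6 arrays (horizontal axis, group and replicate) for 6 keratins, 6 other epidermal genes and 6 tendon genes, with a line joining the replicates of a group for reading only. The keratins and epidermal genes drop on P 1d replicate 2 to the level of the P 6-8w arrays, and the tendon genes, such as Dcn at 18.74, 18.90 and 17.69, do not.

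Across all genes, the 102 with a P 1d range over 2 included the 7 keratins and 25 genes of the 4 epidermal lists. Of the 67 that were lowest on array 2, keratins and these lists made up 32, and the order 3, 1, 2 held in 66 of the 102. The 10 genes outside the keratin family with the largest range and array 2 lowest were Stfa3, Flg, Calml5, Perp, Dsp, Sprr1a, Stfa2l2, Csta3, Tgm3 and Krtdap, of which 6 were on the epidermal lists. The other 4 comprised Calml5, the gene of a calmodulin-like protein of human skin, and 3 genes of the stefin A family of protease inhibitors. Stfa3 had 16.72, 4.07 and 18.70 on the P 1d arrays against 4.77, 5.30 and 4.42 at P 6-8w, and its range of 14.63 was the largest of all genes. Krtdap, a gene of differentiating keratinocytes, had 6.42, 3.45 and 10.17 at P 1d.

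**Figure D4:**
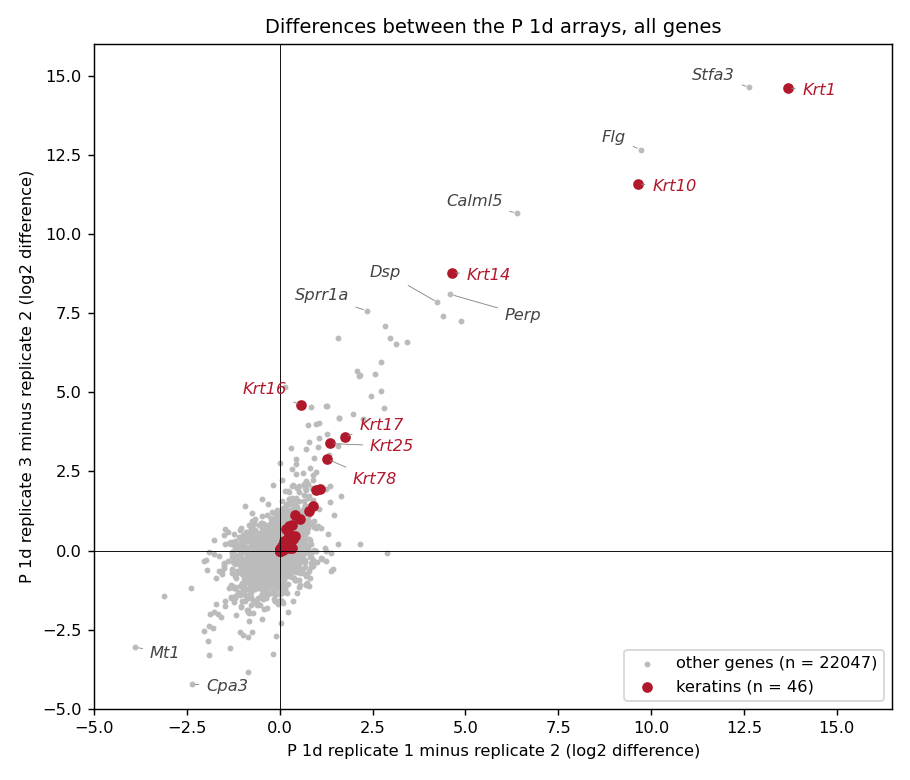
Log2 difference of P 1d replicate 1 minus replicate 2 (horizontal axis) and of replicate 3 minus replicate 2 (vertical axis) for 46 keratins (red) and 22047 other genes (grey), where both axes share replicate 2. Krt1, at 13.69 and 14.61, and Krt10, at 9.64 and 11.58, lie at the upper right beside Flg and Stfa3, and 39 keratins lie within 2 units of 0 on each axis.

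Of 51 measured markers of other cell types, 2 had the order 3, 1, 2 of the keratins, the melanocyte gene Tyr and the adipocyte gene Lep, with ranges of 0.18 or less. None of the 7 melanocyte genes had a P 1d range over 0.18, and Pmel had 4.53 on each P 1d array. All 7 were dim, with P 1d signals from 3.41 to 4.53. Without detection calls, these flat signals do not show whether melanocyte RNA differed among the arrays. The macrophage list went the other way on array 3, with mean signals of 6.41, 7.16 and 5.67 on P 1d arrays 1, 2 and 3 and Mrc1, the mannose receptor gene, at 8.84, 9.91 and 7.32. The 4 measured erythroid genes had mean signals of 4.95, 5.32 and 4.50 in the same order, and the muscle genes of 13.30, 13.48 and 13.59. The tendon list had mean signals of 12.61, 12.40 and 12.02, with Tnmd, Kera, Dcn and Comp lowest on array 3. Over P 1d arrays 1, 2 and 3 the mean signal was 4.12, 4.33 and 4.08 for the adipocyte list, 9.67, 9.63 and 9.60 for the endothelial list, and 3.91, 3.83 and 3.81 for the Schwann cell list. The part of these cell types in the keratin differences was not tested.

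On the P 6-8w arrays the leading keratins lay close together, while the family as a whole did not narrow. The range was wider at P 6-8w than at P 1d in 21 of the 46 members and narrower in 24, with medians of 0.20 at P 6-8w and 0.27 at P 1d. None of the 46 members had a range over 2 on the 3 P 6-8w arrays, beside 0.982% of all genes, and the largest was that of Krt1, 1.08, with array 1 at 5.40 and arrays 2 and 3 at 4.32. Krt84, a hair shaft chain, followed with 0.71 (4.11, 4.65 and 3.94), Krt2 with 0.68, Krt40, another hair shaft chain, with 0.64 and Krt18 with 0.60. In Krt84, Krt40 and Krt18 array 2 was the highest of the 3, whereas in Krt1 and Krt2 it was array 1. Flg, like Krt1, was highest on P 6-8w array 1, and Krt10 on the same arrays had 4.75, 4.56 and 4.56. On P 1d array 2 the 46 keratins lay between 3.08 and 4.82.

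The comparison of the ages, P 6-8w minus P 1d, called 1 of the 46 keratins (2.17%) by limma, where a call needed a fold over 2 and a p under 0.05 after Benjamini-Hochberg adjustment. In the same fit 19.3% of all genes were called, 16.8% lower and 2.46% higher at P 6-8w (3717 and 544 genes, or 991 and 894 after quantile normalization). Since the keratins were chosen by their signals on these arrays, nothing is read from this count. The called member was Krt88, a type II chain, which had 4.61, 4.36 and 4.44 on the P 1d arrays, with 5.56, 6.13 and 5.80 at P 6-8w, without overlap. Its log2 difference was 1.36 (standard error 0.16, adjusted p = 0.00198 from limma), and under the alternatives the adjusted p ranged from 0.00103 to 0.0160. Krt1, Krt10 and Krt14 had log2 differences of -9.0, -6.72 and -3.80 with standard errors of 4.06, 3.07 and 2.18, and none was called (adjusted p = 0.110, 0.113 and 0.181 from limma). Their groups overlapped, since P 1d array 2 fell below all 3 P 6-8w arrays in each.

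The groups did not overlap in 14 keratins (30.4%), and as deposited these stood higher at P 6-8w, beside 34.8% of all genes with no overlap and higher values at P 6-8w and 68.9% with no overlap in either direction. Both the members and the direction of this set depended on how arrays were scaled. Under each other scaling the keratins without overlap were counted anew among all 46, so they need not be the 14 above. Once every array was centred on its own median over the named genes, 8 stood higher and 6 lower without overlap. After quantile normalization 2 stood higher and 17 lower without overlap. These settings were chosen for this count after seeing the data. Of the 46 keratins, 41 had a mean signal below 5, in the range where dim rows as a body stood 0.30 higher at P 6-8w. For Krt2 the mean signal was 3.62 ± 0.06 (SD, n = 3) on the P 1d arrays against 4.32 ± 0.36 (SD, n = 3) on the P 6-8w arrays, a log2 difference of 0.70 that was 0.57 and 0.35 under these scalings. Krt9 had 4.18 ± 0.12 (SD, n = 3) and 4.65 ± 0.10 (SD, n = 3), a difference of 0.47 that was 0.35 and 0.17, and neither keratin reached the fold limit. The median difference over the 46 keratins was 0.05, beside 0.04 over all genes, and turned to -0.08 and -0.28 under the same scalings.

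Which P 1d array was kept decided how many keratins were called. Without P 1d array 2 there were 7, beside 17.2% of all genes: Krt88 was higher, and Krt1, Krt10, Krt14, Krt17, Krt73 and Krt71 were lower at P 6-8w, with log2 differences of -13.72, -10.26, -6.04, -2.30, -1.33 and -1.15. Array 2 was the lowest P 1d array in each of these 6, so leaving it out fixes their direction, and they are given as values. Without P 1d array 1, or without P 1d array 3, Krt88 was the 1 keratin called. Over all settings tried the difference of Krt1 ran from -13.72 to -6.42 and that of Krt10 from -10.26 to -4.47.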

How the data were processed

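The members and gene lists were chosen with earlier results of these data known. Tendon RNA of 3 P 1d and 3 P 6-8w rats was hybridised, 1 rat per array, to the Affymetrix Rat Transcriptome Array 1.0. The authors deposited log2 signals from RMA at default settings with global scaling, in 2 copies that were equal in 413052 of 413052 values. Depth does not apply to arrays, and 6 arrays limit the precision. Of 68842 rows, 23446 named 1 gene, 505 several and 44891 none. Symbols were updated by Entrez ID from RefSeq (20907 of 21031 found, 1 changed), and the highest-mean row stood for each of 22093 genes.

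All genes were fitted with limma 3.58.1 in R 4.3.3 (lmFit, eBayes, no covariates), tested on simulated data, with Benjamini-Hochberg adjustment over all genes. The limits were 0.05 for the adjusted p and 1 for the log2 difference. The methods state a t-test and a fold of 2. The 3 samples of a group are labelled as biological replicates from individual harvests. Ranges over 3 arrays carry no test. Named were the basal, suprabasal and simple keratins, the 10 keratins with the largest P 1d range, those beside the limit of 2, those called, the 5 with the largest P 6-8w range, the 10 other genes with the largest P 1d range where array 2 was lowest and the 5 where it was highest, and up to 4 genes of each list. Genes named beyond this, among them Loricrin, Ivl, Tp63, Cdh1, Hoxc13, Foxn1 and other keratins given by their range, were chosen after their values were seen. Alternatives covered the test (limma-trend, and the methods' t-test, adjusted or not), the fold and range limits, a block for replicate number, 2 other scalings, removal of dim genes, averaging over rows of 1 gene, and leaving out each array. Promoter windows are from RefSeq (GRCr8).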

Additional observations from a re-analysis of the deposited data

How the results depend on the processing

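Of the alternatives tried, the count of called keratins stayed at 1 except without a fold limit, where 8 were called, and in the fits that left out 1 array, where it ran from 1 to 7, the 7 without P 1d replicate 2. The number of keratins with a P 1d range over 2 was 7 under both other scalings and with the mean of a gene's rows. It was 12 at a limit of 1, 4 when genes with a mean under 5 were left out, which removes dim keratins by construction, and 3 to 7 with 1 P 1d array left out (3 without replicate 2 and 3 without replicate 3). At P 6-8w no keratin passed a range of 2 under any of these settings, 0 to 0 with 1 array left out, and 1 passed at a limit of 1. The median keratin difference was -0.28 under quantile normalization (the cause was not tested), -0.08 with each array centred on its median and 0.02 to 0.12 with 1 array left out. Over all genes, 4261 were called (3717 lower, 544 higher), 12005 without a fold limit, 1885 after quantile normalization (991 lower, 894 higher; the cause was not tested) and 3791 to 4684 with 1 array left out. With the replicate number as a block 4148 genes and 1 keratin were called. The labels name no pairing of rats by number. The deviations of same-numbered arrays correlated at 0.01, -0.11 and 0.05 across genes, and those of differently numbered arrays at -0.12 to 0.11. With 3 arrays per group these correlations cannot exclude a pairing. How far a dim keratin stood above background could not be read, since no detection calls were used.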

Other observations

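The genes with the largest P 1d range that were highest on replicate 2, the array on which most keratins were lowest, were on none of the epidermal lists. Cpa3 and Tpsab1, protease genes of mast cells, had 10.32, 12.69 and 8.47, and 6.64, 8.55 and 5.26 on P 1d replicates 1, 2 and 3, against 4.98 to 5.19 and 4.23 to 4.40 at P 6-8w. Mt1, a metallothionein gene, had 7.21, 11.10 and 8.05 at P 1d. The beta-globin gene Hbb-b1 and the beta-globin-like gene Hbbl1 had 16.86, 17.70 and 13.85, and 18.08, 18.27 and 15.01 at P 1d, with replicate 3 lowest, and 17.79 to 19.58 and 18.15 to 19.25 at P 6-8w. Their relation to the keratin differences was not tested.

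Rows without a gene symbol also spread over the P 1d arrays. Of 44891 such rows, 67 had a P 1d range over 2, of which 41 were lowest on replicate 2 and 35 had the order 3, 1, 2 of the keratins, with a largest range of 10.72 among rows lowest on replicate 2.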
